A study of Apis mellifera with 18 samples.

Results

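Cilia are thin cell projections built around a core of microtubules, the axoneme. The genes described here are the cilium and axoneme genes of the honey bee (Apis mellifera), taken by their annotation as the genes whose KEGG description names axonemal dyneins, intraflagellar transport, cilia- and flagella-associated or ciliary proteins, tektins, radial spokes, Bardet-Biedl proteins or the dynein regulatory complex. With the dynein heavy chain gene GB55144 and gudu (GB49219), which the rule also names by identifier, 93 of the 17545 genes in the table were members. RNA was sequenced from mouthparts and from tissue that the labels call tentacles, in bees that collected olea pollen, bees that collected pear pollen and a control group without pollen, with 3 libraries in each of the 6 groups. The groups are therefore olea mouthparts, pear mouthparts and control mouthparts, and olea tentacles, pear tentacles and control tentacles. The labels give no age, strain or genotype of the bees beyond the pollen group. They do not say whether replicates were separate animals, so p-values measure only the spread between these libraries, and pollen collection cannot be told apart from any difference in task, age or colony. The labels of the 3 libraries used as olea mouthparts conflict: the genotype entry gives olea pollen and was followed here, whereas pear pollen stands in the sample titles.

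Ciliated cells assemble the axoneme with intraflagellar transport, in which the IFT-B complex carries cargo outward and the IFT-A complex works in the return, while the Bardet-Biedl complex moves membrane proteins in and out of the cilium. Motile axonemes also carry inner and outer dynein arms, which are put together in the cytoplasm by assembly factors and docked on the microtubules, and radial spokes and the dynein regulatory complex, which govern the arms. In insects, cilia are found on sensory neurons and in sperm, and in Drosophila the dynein arms are used in sperm and in the chordotonal neurons that sense movement and sound.

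The members fell into 9 roles, namely 15 intraflagellar transport genes, 9 Bardet-Biedl genes, 19 axonemal dynein heavy chains, 12 dynein intermediate and light chains, 11 dynein assembly and docking genes, 3 genes of the dynein regulatory complex, 7 radial spoke genes, 10 cilia- and flagella-associated genes and 7 tektins. The best database hit of 61 members was a honey bee gene. Of the 93, 20 shared their hit with another member, so their gene models may be pieces of a gene: GB55144, GB55143 and GB41007 all hit dynein heavy chain 6, and GB49951 and GB49952 both hit dynein heavy chain 3. For 18 members the best hit did not carry the words of the rule, among them GB47499 and GB50170, whose KEGG description is dynein assembly factor 1 but whose best hit is a leucine-rich repeat and IQ domain protein. Library totals ran from 25855496 to 41357453 counts, and members took 0.108 to 0.129% of the counts in mouthparts, against 0.268 to 0.287% in tentacles. After a filter on low counts, 87 members were tested in the tentacles and over all 18 libraries and 78 in the mouthparts, and 6 were tested nowhere. Of these 87, 53 (60.9%) passed at least 1 comparison of pollen groups, near the 61.6% of all 13301 genes tested within a tissue, and 34 passed none.

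Levels between genes are compared per length, in the authors' FPKM (fragments scaled by transcript length and library size). The median over the 93 members of the mean FPKM was 1.38 in mouthparts and 3.81 in tentacles, and 53 members in mouthparts and 66 in tentacles averaged at least 1 FPKM. The transport genes stood above the motor genes in both tissues: the median member of intraflagellar transport had 2.86 FPKM in mouthparts and 19.7 FPKM in tentacles, and that of the Bardet-Biedl genes had 4.25 FPKM in mouthparts and 27.3 FPKM in tentacles. The median dynein heavy chain had 0.442 FPKM in mouthparts and 0.632 FPKM in tentacles. The highest member was GB43095, annotated as Bardet-Biedl syndrome 9, at 161 ± 11.9 FPKM in mouthparts and 133 ± 7.52 FPKM in tentacles (SD, n = 9 each). The other gene models of that annotation, GB43093 and GB43094, lay far below it in the tentacles, at 27.3 ± 2.80 and 44.7 ± 7.02 FPKM (SD, n = 9 each).

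Most cilium genes were lower in mouthparts than in tentacles. All tests below are edgeR quasi-likelihood tests with Benjamini-Hochberg adjustment over all genes tested, and a gene passed at an adjusted p under 0.05. Of 87 members tested, 64 were lower and 10 higher in mouthparts, with a median log2 difference of -1.28, which was the same with the 4 members that had no count in some mouthparts group at a floor of 3 counts over that group. Of all 13361 genes tested, 82.5% passed in either direction, 43.3% lower and 39.2% higher, with a median of -0.05, so the number of members that passed was near the background while the split by direction was not even. Of the 74 calls, 71 passed with any 1 library left out. The exceptions were the dynein regulatory complex gene GB47064, without any of 10 libraries, and the heavy chains GB49952 and GB54468, without pear mouthparts replicate 3. In bulk tissue, fewer ciliated cells and less RNA per cell cannot be told apart.

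The difference was largest in the transport genes. Of 14 intraflagellar transport genes tested, 13 were lower in mouthparts and 1 did not pass, with a median log2 difference of -2.54. The median was -2.52 over the 3 IFT-A genes and -2.82 over the 11 IFT-B genes tested. The IFT-B gene IFT80 (GB49188) had 4.03 to 7.56 CPM (counts scaled to a common library size by the TMM method), with a median of 5.14 CPM, in the 9 mouthparts libraries, against 71.2 to 79.5 CPM with a median of 74.6 CPM in the 9 tentacles libraries. The ranges did not come near each other (log2 -3.80 ± 0.05 SE, adjusted p = 8.1e-22). IFT20 (GB41213), an IFT-B subunit that in vertebrates also sits at the Golgi apparatus, had 24.1 to 38.5 CPM in mouthparts and 26.2 to 43.4 CPM in tentacles and was the intraflagellar transport gene that did not pass (log2 0.02 ± 0.06 SE, adjusted p = 0.71). The Bardet-Biedl genes had a median of -2.70, with 8 lower and 1 higher. BBS1 (GB50742) had 7.74 to 12.5 CPM in mouthparts, against 129 to 164 CPM in tentacles (log2 -3.74 ± 0.06 SE, adjusted p = 1.4e-21). GB43095 was the Bardet-Biedl gene that was higher in mouthparts (log2 0.56 ± 0.04 SE, adjusted p = 3.2e-10).

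The dynein motors were divided. Of 17 heavy chains tested, 5 were higher and 10 lower in mouthparts, with a median of -0.31. Gene models that share a hit, such as those of heavy chains 3 and 6, were counted separately. Among the higher ones, GB55144 ran the other way in pear bees, with 24.6 to 26.9 CPM in mouthparts and 36.9 to 38.2 CPM in tentacles. Dynein heavy chain 12 (GB43214), an inner arm motor, had 98.6 to 126 CPM in mouthparts, against 31.4 to 43.5 CPM in tentacles (log2 1.63 ± 0.03 SE, adjusted p = 4.4e-20). GB51673, a dynein beta chain, had 13.5 to 23.6 CPM in mouthparts, against 4.56 to 5.998 CPM in tentacles (log2 1.74 ± 0.07 SE, adjusted p = 8.2e-15). In both genes every mouthparts library lay above every tentacles library. GB50114, the other gene whose best hit is a dynein beta chain, ran the other way, with 0.643 to 1.93 CPM in mouthparts and 6.96 to 9.60 CPM in tentacles.

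Single spoke and shaft genes had wide gaps, although the medians of these roles were smaller in size than those of the transport genes. RSPH3 (GB51084), a radial spoke protein, had 0.577 to 2.40 CPM in mouthparts, against 80.3 to 95.2 CPM in tentacles, with no overlap (log2 -5.81 ± 0.08 SE, adjusted p = 4.3e-22, the smallest p among the members). Radial spoke genes had a median of -1.73, with 3 lower and 1 higher of 6, and all 10 cilia- and flagella-associated genes were lower, with a median of -1.23. Of 7 genes annotated as tektins, filament proteins of the axonemal doublets, 4 were lower and 2 higher. Among the lower ones, GB51155 and GB52553 share a best hit that is an uncharacterized protein. Tektin-2 (GB41085) had 2.63 to 5.39 CPM in mouthparts, against 31.2 to 39.9 CPM in tentacles (log2 -3.31 ± 0.07 SE, adjusted p = 1.4e-19). Tektin-1 (GB46926) had 9.47 to 14.96 CPM in mouthparts, against 4.67 to 6.48 CPM in tentacles (log2 1.13 ± 0.08 SE, adjusted p = 8.2e-11). The other tektin called higher, tektin-3 (GB53379, log2 0.21 ± 0.05 SE, adjusted p = 0.00049), averaged 8.20 ± 0.88 FPKM in mouthparts and 8.60 ± 0.70 FPKM in tentacles (SD, n = 9 each), so its direction turned on the FPKM scale. On that scale the median of all genes moved to -0.25 at a pseudocount of 1 and to -0.32 at a pseudocount of 0.1, and 7 members were higher in mouthparts. Assembly and docking genes had 7 lower and 1 higher of 10 (median -0.86), intermediate and light chains 7 lower and none higher of 11 (median -0.91), and the dynein regulatory complex 2 lower and none higher of 3 (median -0.25).

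**Figure D1:**
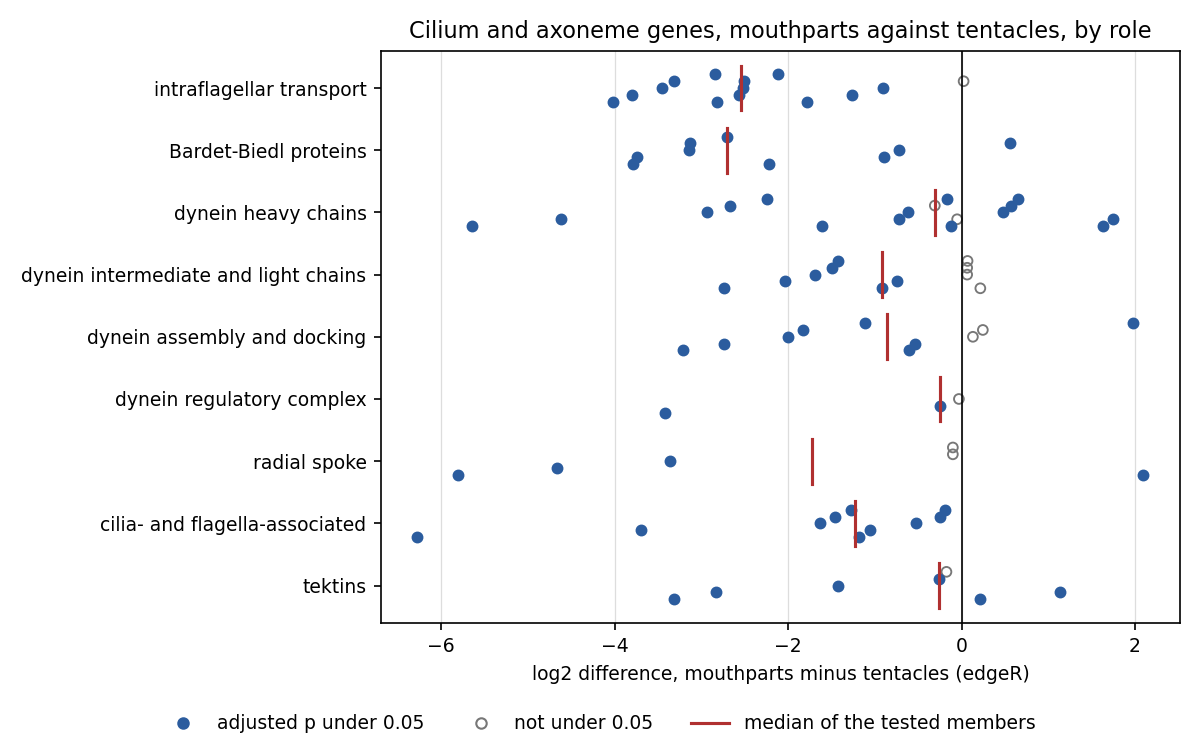
Log2 difference of each tested member, mouthparts minus tentacles (x axis), by role (y axis). Filled points passed at an adjusted p under 0.05, open points did not, and red bars are role medians: intraflagellar transport and Bardet-Biedl genes centre at -2.54 and -2.70, dynein heavy chains at -0.31.

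Genes outside the list that mark other cells moved with the tissues as well, beside 43.3% lower and 39.2% higher in mouthparts among all genes. Odorant receptors, the markers of olfactory neurons, were lower in mouthparts in 108 of 109 genes tested (median -6.32), and their summed level was 51.1 to 85.7 CPM in mouthparts libraries, against 1810 to 2178 CPM in tentacles libraries. Of the neuron markers, 26 were lower and 7 higher of 33, and of the muscle markers 27 were higher and 1 lower of 31. Hypopharyngeal gland markers were higher in 7 and lower in 3 of 11, the single fat body marker was higher, and photoreceptor markers were higher in 4 and lower in 3 of 9. The part of these cell types in the difference of the cilium genes was not tested.

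Between pollen groups, the share of members that passed was near the share of all genes. In the tentacles, 8 members were higher and 17 lower in pear than in control bees (background 29.5% of 12950 genes, 14.9% higher and 14.6% lower), and 7 were higher and 18 lower in olea than in control bees (background 27.9%, 14.4% higher and 13.5% lower). Member medians of -0.02 and -0.01 were next to -0.01 and 0.00 for all genes. Olea and pear tentacles differed in 1 member higher and 3 lower (background 2.6%, 1.91% higher and 0.695% lower). In the mouthparts, 3 members were higher and 19 lower in olea than in control bees (background 26.8% of 12285 genes, 12% higher and 14.8% lower), with a median of -0.14 beside -0.01. In pear mouthparts, 10 were higher and 13 lower than in control mouthparts (background 33.8%, 16.5% higher and 17.3% lower), with a median of 0.09 beside 0.01. Olea mouthparts set against pear mouthparts had 4 members higher and 16 lower (background 30.9%, 14.9% higher and 15.9% lower), with a median of -0.20 beside -0.01. Both pollen groups of a tissue were set against the same control libraries.

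Some of these counts rest on single libraries or on the scale. The number of calls that passed with any 1 library left out was 12 of 25 in pear tentacles, 14 of 25 in olea tentacles, 16 of 23 in pear mouthparts, 8 of 22 in olea mouthparts and 11 of 20 for olea against pear mouthparts, and the member calls given below with a log2 value are among these unless a library is named beside them. Without pear replicate 3, pear tentacles had 8 members higher and 9 lower, and without olea replicate 1, olea tentacles had 6 higher and 9 lower. On the FPKM scale with a pseudocount of 1, where the median of all genes moved to 0.11, pear mouthparts had 14 members higher and 6 lower than control mouthparts, and with a pseudocount of 0.1 (median 0.14) 13 higher and 6 lower. With the conflicting libraries read as pear, 3 members were higher and 8 lower in pear than in control mouthparts. The 12 pear mouthparts calls lost under that reading were GB41085, GB41213, GB42373, GB43095, GB43904, GB46926, GB47499, GB49952, GB51016, GB51339, GB54468 and GB55144.

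**Figure D2:**
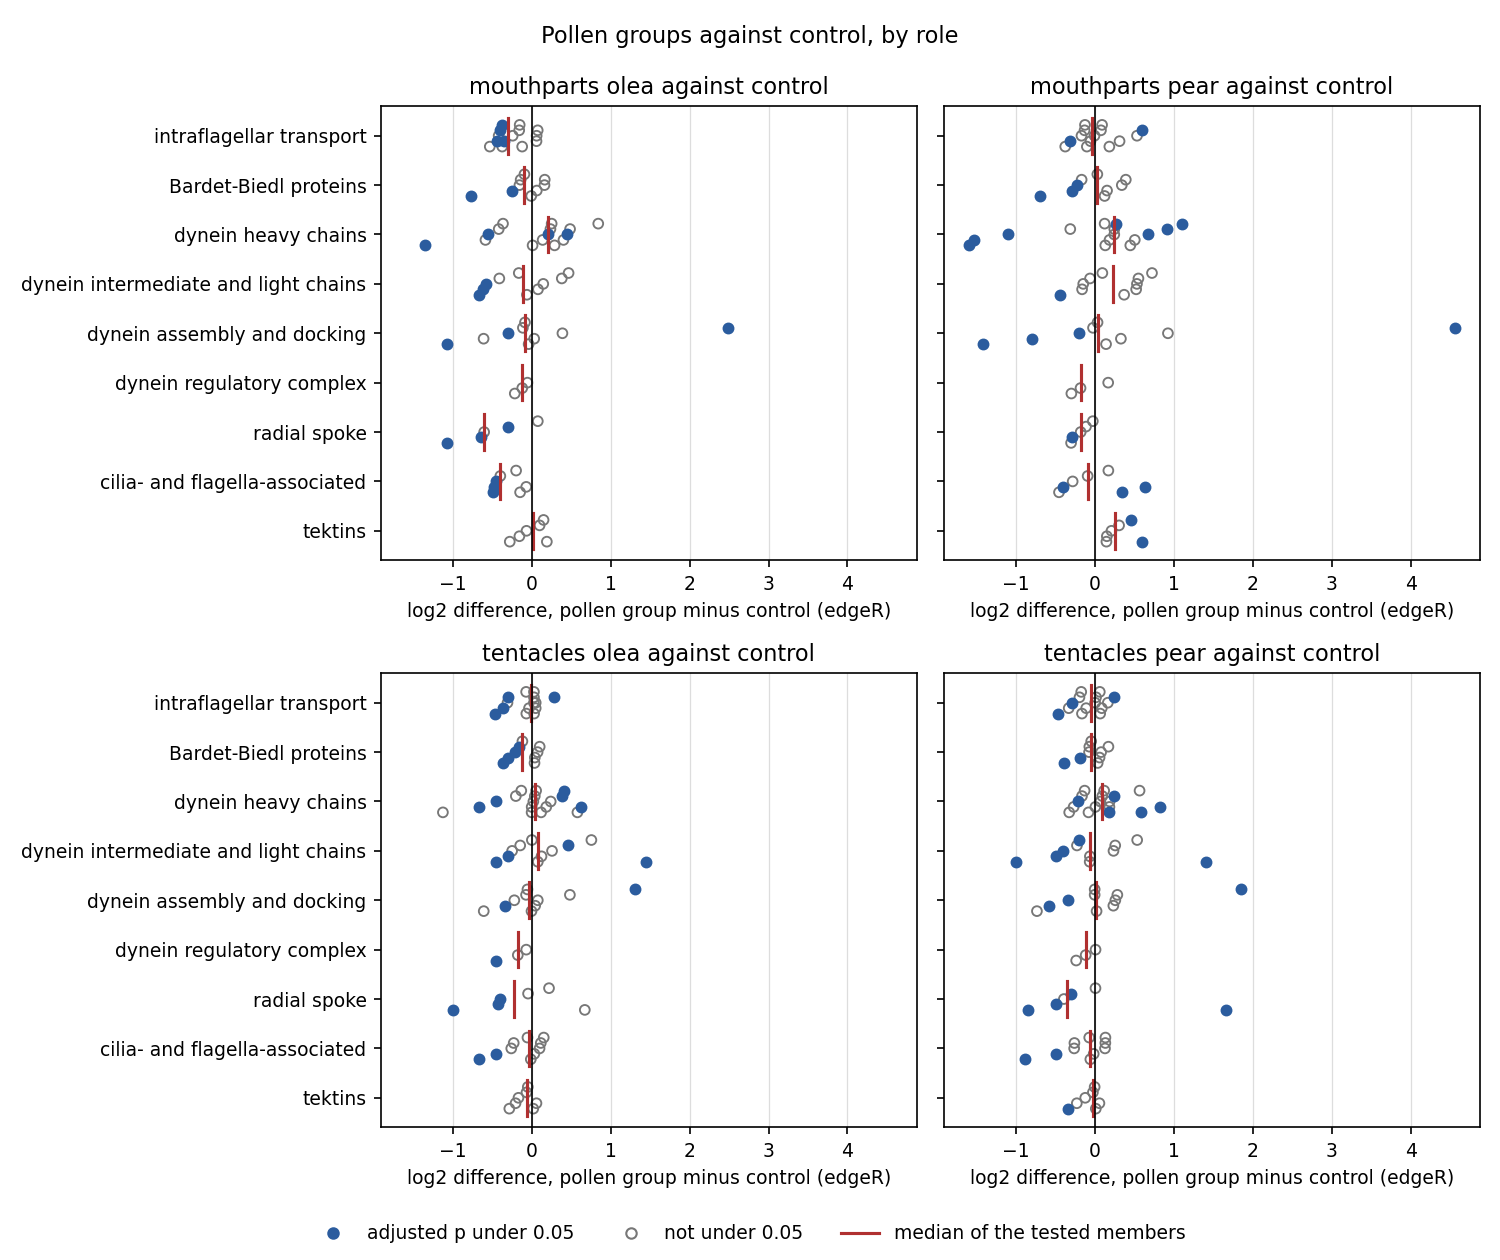
Log2 difference of each tested member (x axis), pollen group minus control, by role (y axis), in mouthparts (upper panels) and tentacles (lower panels), for olea (left) and pear (right). Filled points passed at an adjusted p under 0.05 and red bars are role medians. The point at 4.57 in pear mouthparts, 2.48 in olea mouthparts, 1.86 in pear tentacles and 1.30 in olea tentacles is gudu.

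Gudu (GB49219) passed in all 6 comparisons of pollen groups, which no other member did. Its protein carries armadillo repeats and is the counterpart of vertebrate ARMC4, which helps dock the outer dynein arms, and in Drosophila gudu is needed for sperm formation. In mouthparts it had 6.81, 6.51 and 7.34 CPM in the olea libraries, 29.4, 29.9 and 29.1 CPM in the pear libraries and 0.984, 1.65 and 1.09 CPM in the control libraries. In tentacles it had 26.2, 25.4 and 28.4 CPM in the olea libraries, 40.7, 40.3 and 36.4 CPM in the pear libraries and 9.74, 10.9 and 11.6 CPM in the control libraries. No groups of a tissue overlapped, and the order was pear, olea, control in both tissues. In mouthparts the log2 difference from control was 2.48 ± 0.16 (SE) in olea (adjusted p = 9e-07) and 4.57 ± 0.15 (SE) in pear (adjusted p = 6e-10), and olea minus pear was -2.09 ± 0.12 (SE, adjusted p = 3.2e-07). In tentacles it was 1.30 ± 0.08 (SE) in olea (adjusted p = 8e-07) and 1.86 ± 0.08 (SE) in pear (adjusted p = 3.4e-08), and olea minus pear was -0.55 ± 0.08 (SE, adjusted p = 0.0025). The pear difference was larger in mouthparts than in tentacles by 2.70 ± 0.17 (SE, adjusted p = 1.8e-09) and the olea difference by 1.15 ± 0.18 (SE, adjusted p = 0.00027), although for olea this did not pass on the FPKM scale with a pseudocount of 1 (0.13, adjusted p = 0.47).

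**Figure D3:**
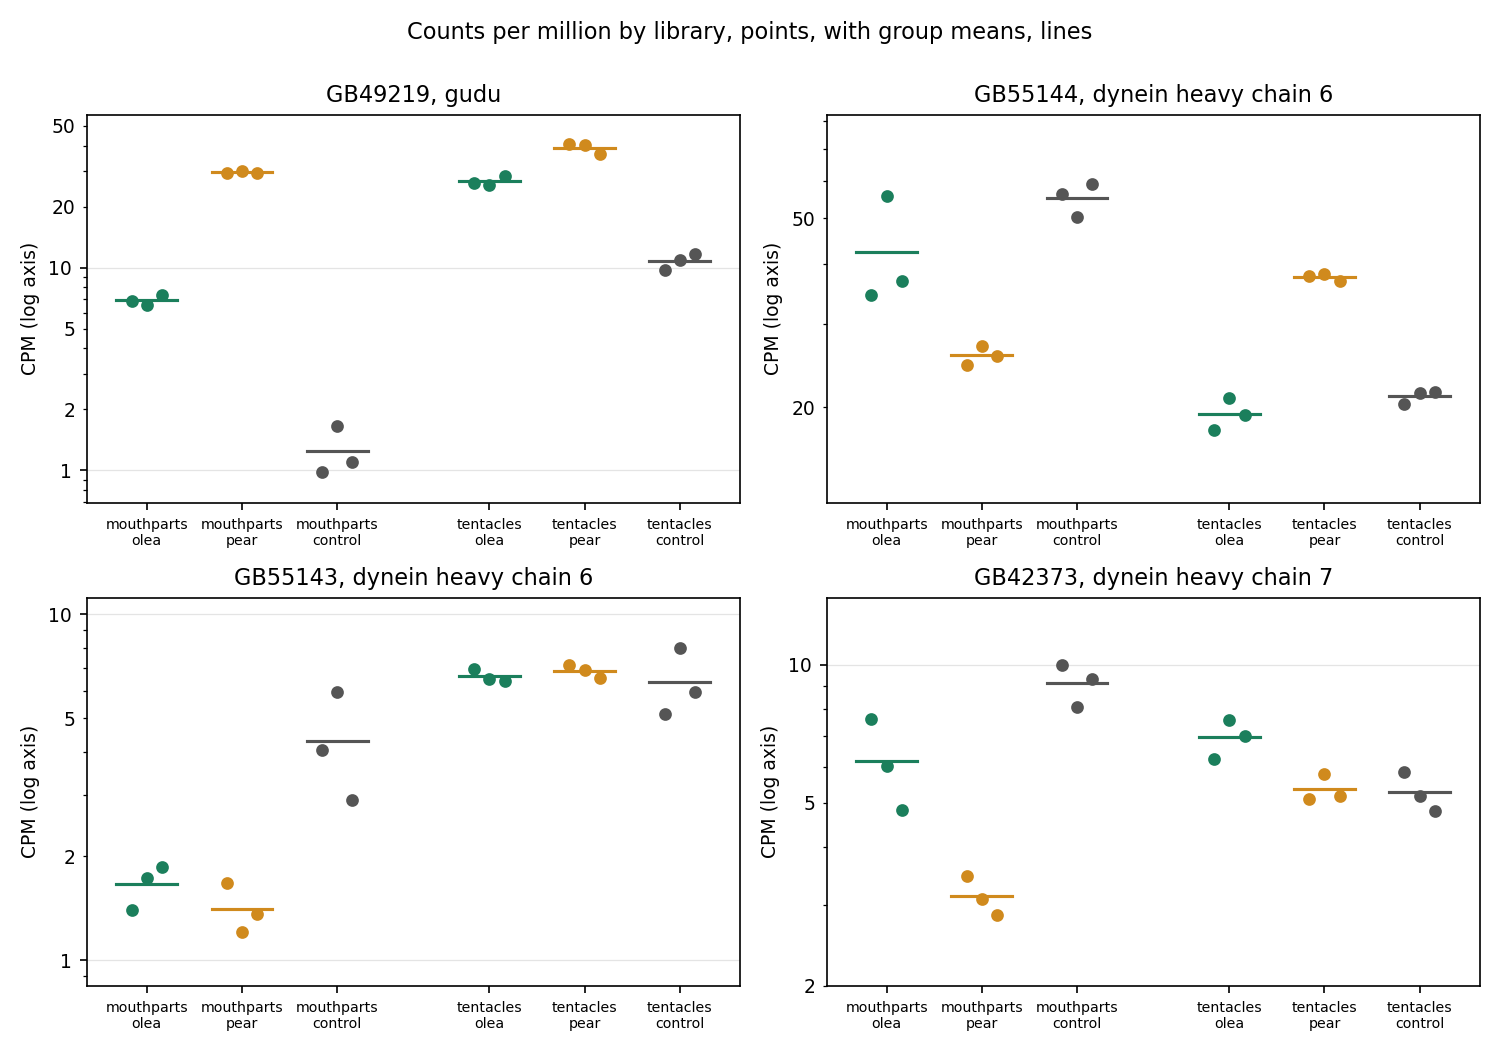
CPM in each library (y axis, log scale) for gudu, the dynein heavy chain 6 gene models GB55144 and GB55143, and dynein heavy chain 7, in olea, pear and control groups of mouthparts and tentacles (x axis). Points are libraries and lines are means of 3. Gudu runs from 0.984 CPM in a control mouthparts library to 40.7 CPM in a pear tentacles library.

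Of the other assembly and docking genes, GB42682, GB45536, GB49179, GB50061 and GB54124 passed in no comparison of pollen groups. Those described here had lower calls against control, smaller in size than the differences of gudu from control. Kintoun (GB54715), dynein assembly factor 2, had 37.2, 38.8 and 36.0 CPM in olea, 40.2, 38.9 and 41.4 CPM in pear and 47.9, 45.3 and 46.1 CPM in control mouthparts. In tentacles it had 54.4, 56.8 and 55.7 CPM in olea, 56.6, 55.9 and 53.6 CPM in pear and 63.3, 80.8 and 64.3 CPM in control libraries. Each pollen library lay below each control library of its tissue. The log2 differences were -0.30 ± 0.06 in olea mouthparts (adjusted p = 0.0053), -0.33 ± 0.08 in olea tentacles (adjusted p = 0.01), -0.34 ± 0.08 in pear tentacles (adjusted p = 0.0086) and -0.21 ± 0.06 in pear mouthparts (SE, adjusted p = 0.025), where the call was lost without control replicate 1, pear replicate 1 or pear replicate 2. GB54231, dynein assembly factor 4, fell in pear tentacles, where it had 4.97, 4.38 and 4.96 CPM, against 7.79, 7.25 and 6.18 CPM in control tentacles (log2 -0.58 ± 0.11 SE, adjusted p = 0.0024), while olea tentacles had 6.89, 6.57 and 6.97 CPM and overlapped the controls. In mouthparts GB47499, annotated as dynein assembly factor 1, had 41.0, 36.2 and 36.9 CPM in olea libraries, 27.1, 22.8 and 21.8 CPM in pear libraries and 38.9, 39.5 and 46.3 CPM in control libraries. The pear libraries stood apart below the others (log2 -0.79 ± 0.10 SE against control, adjusted p = 9.9e-05).

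Dynein heavy chains, the motor subunits of the arms, went in both directions. The heavy chain 6 gene model GB55144 had 34.5, 55.8 and 36.9 CPM in olea, 24.6, 26.9 and 25.6 CPM in pear and 56.3, 50.2 and 59.1 CPM in control mouthparts. In tentacles it had 17.9, 20.9 and 19.3 CPM in olea, 37.7, 38.2 and 36.9 CPM in pear and 20.3, 21.4 and 21.5 CPM in control libraries. The pear libraries were thus the lowest group in mouthparts and the highest in tentacles, and in both tissues olea overlapped control. Pear minus control was -1.10 ± 0.16 (SE, adjusted p = 0.00064) in mouthparts and 0.82 ± 0.07 (SE, adjusted p = 6.3e-06) in tentacles, and the 2 differed by -1.94 ± 0.18 (SE, adjusted p = 4.1e-07). Olea minus pear was 0.74 ± 0.16 (SE, adjusted p = 0.0068) in mouthparts and -0.96 ± 0.07 (SE, adjusted p = 7.3e-05) in tentacles. The model GB55143, which hits the same heavy chain, had 1.39, 1.73 and 1.87 CPM in olea, 1.67, 1.20 and 1.36 CPM in pear and 4.05, 5.95 and 2.90 CPM in control mouthparts. It fell in both pollen groups of the mouthparts, by 1.36 ± 0.26 in olea (SE, adjusted p = 0.0025) and 1.60 ± 0.25 in pear (SE, adjusted p = 0.0005) on the log2 scale. In tentacles its 9 libraries ran from 5.15 to 7.98 CPM and its log2 differences were 0.04 in olea and 0.09 in pear, so the 2 gene models did not move together in pear tentacles.

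Other heavy chains differed in pear mouthparts. Dynein heavy chain 7 (GB42373), an inner arm motor, had 7.63, 6.01 and 4.83 CPM in olea, 3.47, 3.10 and 2.85 CPM in pear and 9.995, 8.08 and 9.30 CPM in control mouthparts. Pear libraries were below all olea and control libraries (log2 -1.53 ± 0.17 SE against control, adjusted p = 3e-05), and olea libraries were above pear by 0.98 ± 0.17 (SE, adjusted p = 0.0012). Dynein heavy chain 5 (GB54468), an outer arm motor, had 35.0, 34.3 and 31.6 CPM in olea, 53.3, 55.5 and 52.6 CPM in pear and 32.8, 35.6 and 32.9 CPM in control mouthparts. Only the pear libraries stood apart, by 0.67 ± 0.07 (SE, adjusted p = 1.3e-05) against control, and olea minus pear was -0.66 ± 0.07 (SE, adjusted p = 3.9e-05). Dynein heavy chain 3 (GB49952), an inner arm motor, rose against control in pear mouthparts (0.92 ± 0.11 SE, adjusted p = 7.9e-05), olea tentacles (0.63 ± 0.07 SE, adjusted p = 0.0001) and pear tentacles (0.58 ± 0.07 SE, adjusted p = 0.00015). Its olea mouthparts libraries, at 24.2, 26.1 and 18.8 CPM, overlapped the control mouthparts libraries at 19.4, 21.7 and 18.1 CPM.

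GB43377, whose best hit is dynein heavy chain 2 of another species, an inner arm motor, had 6.06, 7.92 and 7.39 CPM in olea, 11.9, 12.3 and 11.4 CPM in pear and 12.9, 10.8 and 9.79 CPM in control tentacles. The olea libraries were below all others (log2 -0.66 ± 0.13 SE against control, adjusted p = 0.0024). Olea minus pear was -0.73 ± 0.13 (SE, adjusted p = 0.0085), a call lost without olea replicate 1 or pear replicate 2. The gene that hits honey bee dynein heavy chain 2, GB50548, passed in no comparison of pollen groups and had 1.73 to 2.77 CPM in the tentacles libraries. Dynein heavy chain 12 (GB43214) rose in each pollen group, by 0.41 ± 0.06 in olea tentacles (SE, adjusted p = 0.00037) and 0.27 ± 0.06 in pear mouthparts (SE, adjusted p = 0.0031). The calls in olea mouthparts (0.20 ± 0.06 SE, adjusted p = 0.02) and pear tentacles (0.18 ± 0.06 SE, adjusted p = 0.036) were lost on leaving out some single libraries, mouthparts control replicate 1 or 3 in olea mouthparts and tentacles control replicate 1 or 3, pear replicate 1 or 2 or olea replicate 1 or 2 in pear tentacles.

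Of 11 intermediate and light chain genes tested in tentacles, 1 was higher and 4 lower in pear than in control bees (45.5%, background 29.5%). In olea tentacles 2 were higher and 2 lower (36.4%, background 27.9%). Some of these calls were lost without single libraries, those of GB44329, GB47338 and GB51422 in pear and of GB47338, GB48475 and GB55743 in olea. In mouthparts, 1 of 10 was lower in pear (background 33.8% in either direction) and 3 of 10 in olea (background 26.8%), where the calls of GB40704 and GB55743 were lost without single libraries. Intermediate chains anchor the heavy chains. GB51771, annotated as intermediate chain 2, had 1.10, 0.840 and 1.02 CPM in olea, 0.940, 1.04 and 0.901 CPM in pear and 0.261, 0.352 and 0.477 CPM in control tentacles. Every pollen library was above every control library (olea 1.44 ± 0.26 SE, adjusted p = 0.0018, and pear 1.41 ± 0.26 SE, adjusted p = 0.0018), at a low level throughout. GB55743, annotated as intermediate chain 1, had 8.84, 9.16 and 9.88 CPM in pear, against 11.4, 12.5 and 12.6 CPM in control tentacles, with no overlap (log2 -0.40 ± 0.09 SE, adjusted p = 0.0071). GB47338, the gene that hits honey bee intermediate chain 2, was lower than control in both pollen groups of both tissues, with log2 differences of -0.58 in olea mouthparts (adjusted p = 0.0073), -0.44 in pear mouthparts (adjusted p = 0.019), -0.46 in olea tentacles (adjusted p = 0.023) and -0.49 in pear tentacles (adjusted p = 0.016). Of these, the first passed with any library left out. The others were lost without mouthparts control replicate 1 or pear replicate 2 or 3, without tentacles control replicate 1 or any olea replicate, and without tentacles control replicate 1 or pear replicate 3.

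Against pear mouthparts, olea mouthparts had 5 intraflagellar transport genes lower and 1 higher of 14 (median -0.27, background 15.9% lower and 14.9% higher). Of these calls, those of GB49188, GB51120 and GB54167 and the higher call of GB41213 were lost without some single libraries. Between olea and pear tentacles none passed edgeR's quasi-likelihood test, which called 4 members of all roles there, a count that DESeq2 raised to 7. IFT81 (GB43904), an IFT-B subunit that binds tubulin together with IFT74, had 13.7, 18.5 and 14.3 CPM in olea, 32.5, 27.5 and 30.4 CPM in pear and 19.5, 18.7 and 21.5 CPM in control mouthparts. The 3 groups did not overlap. Pear was above control by 0.60 ± 0.12 (SE, adjusted p = 0.0018) and olea minus pear was -0.95 ± 0.12 (SE, adjusted p = 0.00015). Olea minus control was -0.35 ± 0.12 (SE, adjusted p = 0.05, just under the threshold), and this call was lost without any 1 of 7 libraries, namely the 3 control replicates, olea replicates 1 and 3 and pear replicates 1 and 3. IFT140 (GB54158), a core subunit of IFT-A, had 13.5, 13.7 and 11.6 CPM in olea, 21.1, 20.4 and 19.0 CPM in pear and 17.1, 18.4 and 17.8 CPM in control mouthparts. The olea libraries were the lowest group, by -0.44 ± 0.09 against control (SE, adjusted p = 0.0047) and -0.63 ± 0.09 against pear (SE, adjusted p = 0.00043).

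In tentacles IFT20 (GB41213) fell with either pollen. It had 28.7, 26.9 and 28.6 CPM in olea, 28.0, 26.2 and 29.5 CPM in pear and 43.4, 37.3 and 34.2 CPM in control tentacles. All pollen libraries were below all control libraries (olea -0.46 ± 0.09 SE, adjusted p = 0.0024, and pear -0.47 ± 0.09 SE, adjusted p = 0.002). IFT81 (GB43904) rose in olea tentacles, by 0.28 ± 0.06 (SE, adjusted p = 0.0064), and in pear tentacles by 0.25 ± 0.06 (SE, adjusted p = 0.011), the second call being lost without pear replicate 2. Of the 14 intraflagellar transport genes, 1 was higher and 3 lower in olea tentacles, and 1 higher and 2 lower in pear tentacles, with a median of -0.05 in pear, shares near or below the 27.9% and 29.5% of all genes.

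The Bardet-Biedl genes fell or did not pass in every comparison with control. BBS9, also called PTHB1, is represented by several gene models. The most abundant, GB43095, passed among the pollen comparisons only in pear mouthparts, as lower than control. That call was lost without any 1 of 6 libraries. In tentacles GB43095 had 256.7, 260.5 and 255.5 CPM in olea, 249.1, 259.3 and 252.4 CPM in pear and 216.6, 227.8 and 270.1 CPM in control libraries, with overlap. The model GB43094 had 20.9, 18.8 and 17.6 CPM in olea, 21.8, 20.4 and 18.8 CPM in pear and 30.6, 35.4 and 33.1 CPM in control mouthparts. In tentacles it had 99.9, 103.8 and 100.2 CPM in olea, 96.5, 98.1 and 103.9 CPM in pear and 123, 119 and 147 CPM in control libraries. Pollen and control libraries did not overlap in either tissue. The log2 differences were -0.77 ± 0.09 in olea mouthparts (SE, adjusted p = 0.00014), -0.69 ± 0.09 in pear mouthparts (SE, adjusted p = 0.00015), -0.37 ± 0.07 in olea tentacles (SE, adjusted p = 0.0023) and -0.39 ± 0.07 in pear tentacles (SE, adjusted p = 0.0014). The neighbouring identifier GB43093, which has the same best hit, was also lower in all 4 (log2 -0.25 in olea mouthparts, -0.29 in pear mouthparts, -0.30 in olea tentacles and -0.19 in pear tentacles), though without tentacles control replicate 3 or any pear replicate the call in pear tentacles was lost, and without mouthparts control replicate 1 or 3 or olea replicate 3 that in olea mouthparts.

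Some spoke and shaft genes differed between the mouthparts groups, and in CFAP65 and RSPH3 all olea libraries were lowest. CFAP65 (GB51016), which in mammals is needed for sperm tails, had 12.6, 15.4 and 12.1 CPM in olea, 27.9, 25.4 and 32.4 CPM in pear and 17.3, 19.2 and 18.9 CPM in control mouthparts. The groups did not overlap, and olea minus pear was -1.08 ± 0.12 (SE, adjusted p = 6.8e-05). Pear minus control was 0.64 ± 0.12 (SE, adjusted p = 0.0013), and olea minus control was -0.45 ± 0.12 (SE, adjusted p = 0.017), a call lost without control replicate 2, olea replicate 1 or olea replicate 3. RSPH3 (GB51084) had 1.39, 0.577 and 0.933 CPM in olea, 2.16, 1.78 and 1.77 CPM in pear and 2.40, 1.69 and 2.10 CPM in control mouthparts. All 3 olea libraries were lowest (-1.07 ± 0.28 SE against control, adjusted p = 0.016), but this was lost without control replicate 1 or olea replicate 3. Tektin-2 (GB41085) had 2.91, 2.76 and 2.63 CPM in olea, 4.75, 5.39 and 5.21 CPM in pear and 3.42, 2.81 and 3.95 CPM in control mouthparts. It rose in pear against control (0.59 ± 0.15 SE, adjusted p = 0.008) and was lower in olea than in pear (-0.87 ± 0.15 SE, adjusted p = 0.0011). Its olea libraries overlapped the control libraries. CFAP43 (GB50225) fell in both pollen groups of the mouthparts (olea -0.49 ± 0.10 SE, adjusted p = 0.0048, and pear -0.40 ± 0.10 SE, adjusted p = 0.01), and its olea and pear libraries overlapped.

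**Figure D4:**
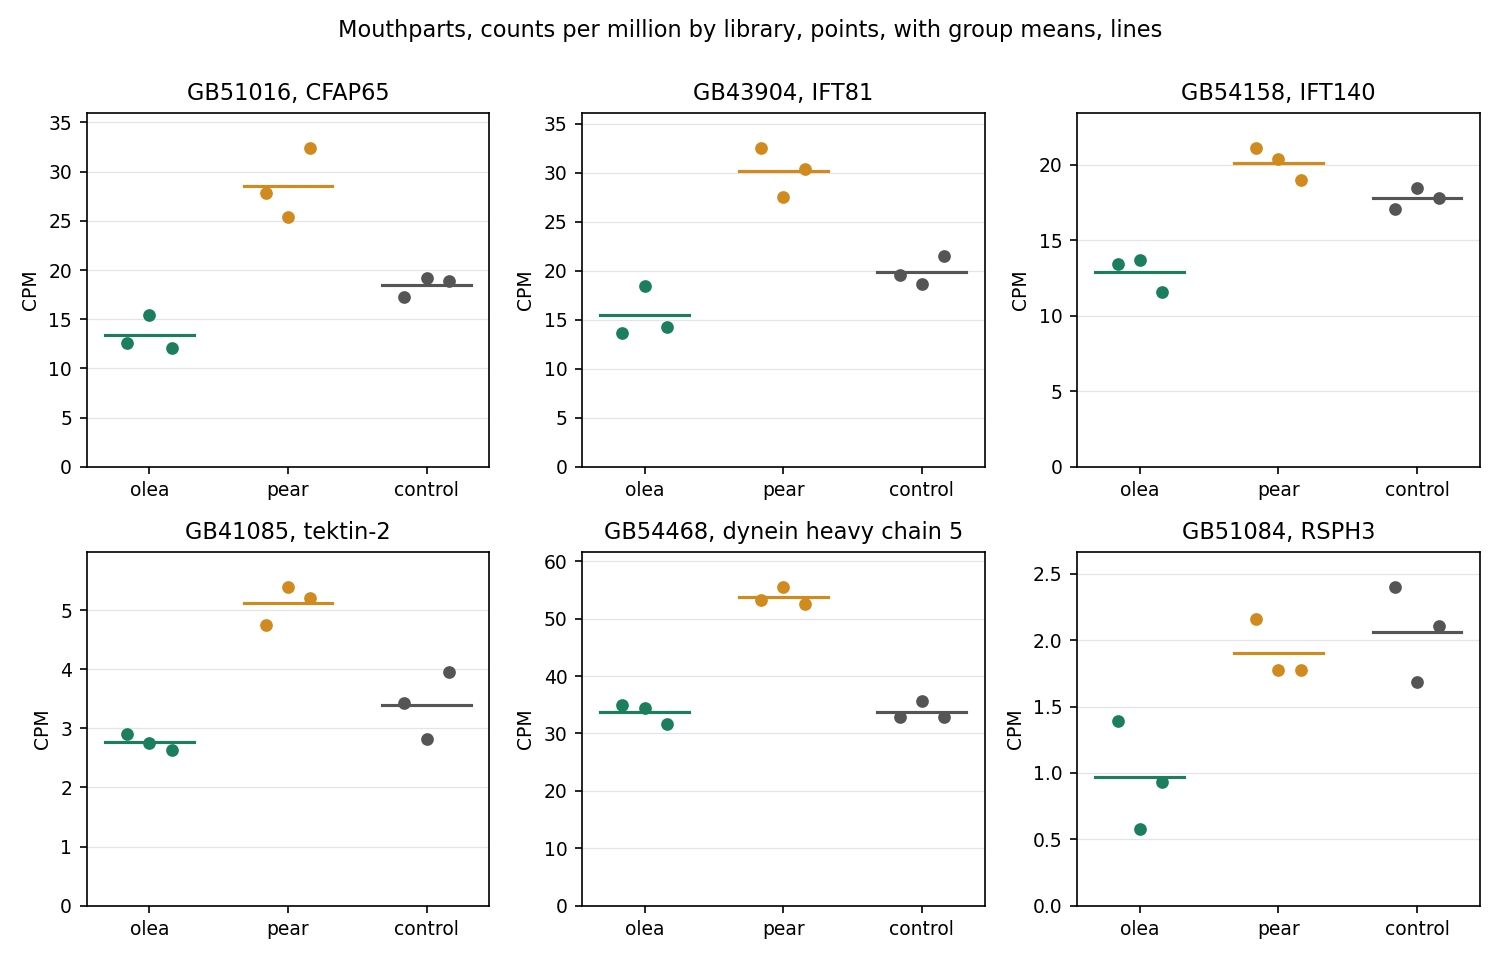
CPM in each mouthparts library (y axis, linear from 0) for 6 members in the olea, pear and control groups (x axis). Points are libraries and lines are means of 3. In CFAP65, IFT81 and IFT140 the pear libraries are highest and the olea libraries lowest, and dynein heavy chain 5 is raised in pear alone.

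Spoke, shaft and regulatory complex genes also changed in tentacles. CFAP251 (GB40719), linked in mammals to sperm tail motility, had 6.85, 6.33 and 7.45 CPM in olea, 5.94, 6.14 and 5.68 CPM in pear and 11.2, 11.5 and 9.91 CPM in control tentacles. No pollen library reached the controls (olea -0.67 ± 0.10 SE, adjusted p = 0.00047, and pear -0.89 ± 0.10 SE, adjusted p = 5.5e-05). GB55223, annotated as radial spoke head protein 4/6, had 35.6, 36.0 and 36.2 CPM in olea, 37.2, 34.1 and 30.6 CPM in pear and 45.8, 52.2 and 43.4 CPM in control tentacles. It too was lower without overlap (olea -0.41 ± 0.08 SE, adjusted p = 0.0039, and pear -0.49 ± 0.08 SE, adjusted p = 0.0012). A pair of gene models with the same radial spoke head 1 hit went apart in pear tentacles. GB42575 had 1.82, 1.98 and 1.80 CPM in pear tentacles, against 0.348, 0.352 and 1.13 CPM in control tentacles (1.66 ± 0.38 SE, adjusted p = 0.0073). GB48037 had 14.8, 14.1 and 16.5 CPM in pear tentacles, against 17.2, 19.0 and 19.5 CPM in control tentacles (-0.31 ± 0.08 SE, adjusted p = 0.017, lost without pear replicate 1 or 2). Among the genes listed for the dynein regulatory complex, GB44676 fell in olea tentacles (-0.46 ± 0.09 SE, adjusted p = 0.0031). Its best hit is DRC7, but its KEGG description also names PHD finger protein 20, so its place in the complex is uncertain.

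**Figure D5:**
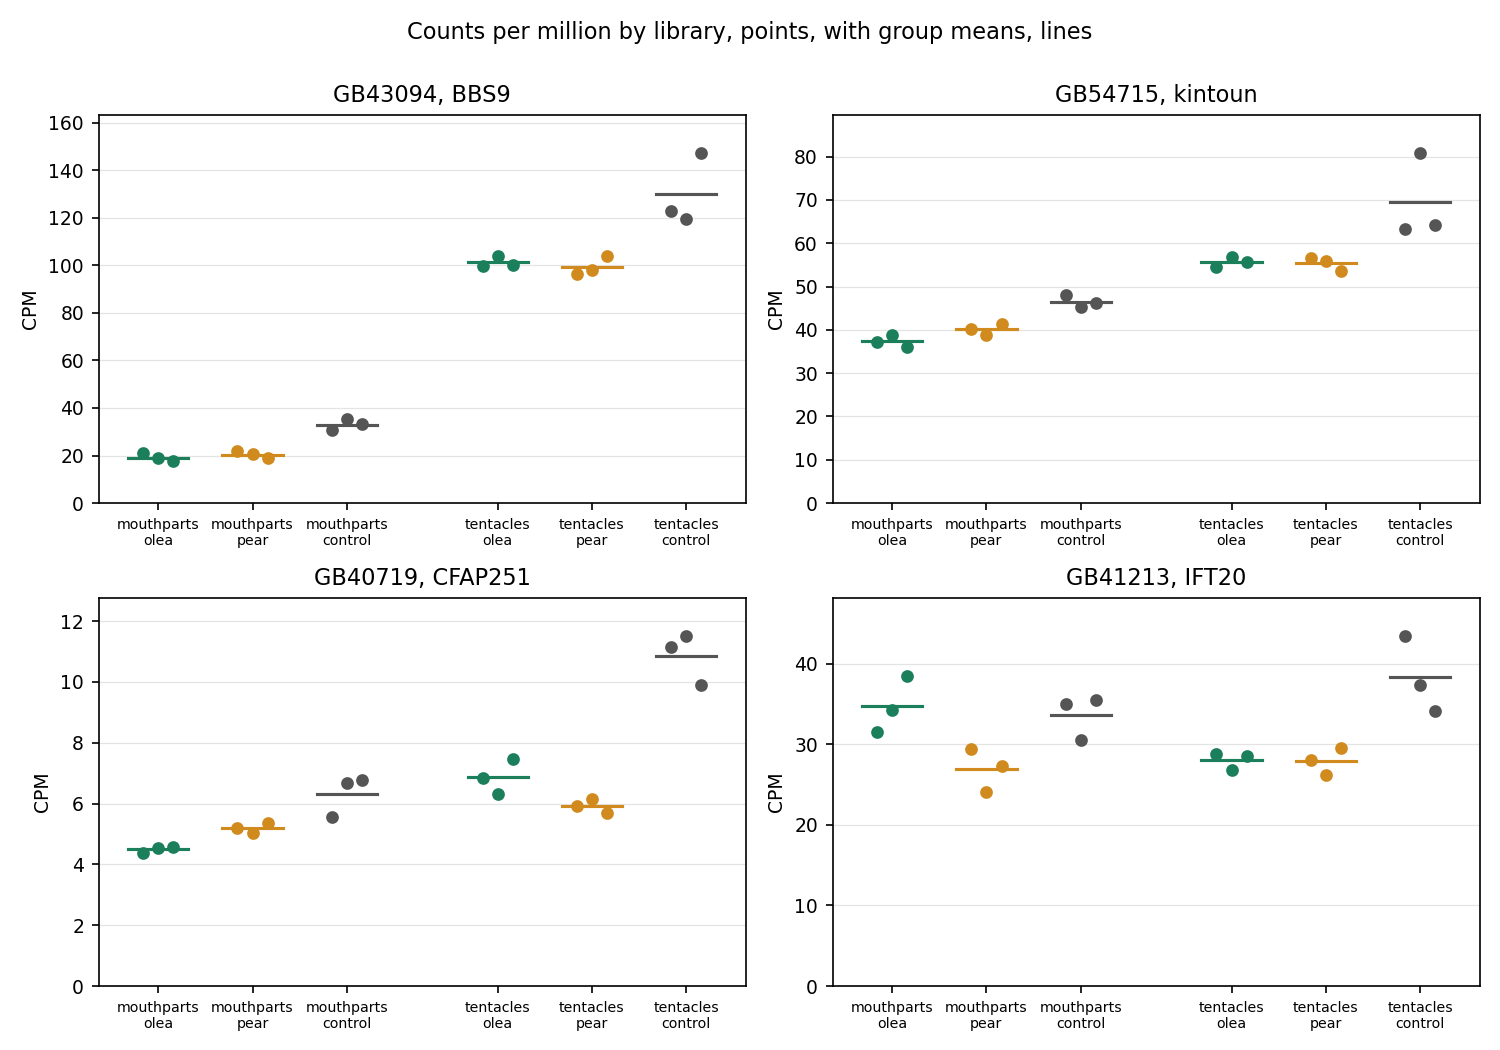
CPM in each library (y axis, linear from 0) for BBS9 (GB43094), kintoun, CFAP251 and IFT20 in olea, pear and control groups of mouthparts and tentacles (x axis). Points are libraries and lines are means of 3. In the tentacles, all olea and pear libraries of these 4 genes lie below all control libraries.

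Of 78 members tested in both tissues, 5 were higher in pear than in control bees in both (GB43214, GB43904, GB49219, GB49952 and GB54468, against a background of 7.94% of 11934 genes), and 6 were lower in both (GB41213, GB43093, GB43094, GB47338, GB54715 and GB55223, background 6.72%). GB55144 was lower in mouthparts and higher in tentacles (background 0.972%). Of these 12, only GB49219, GB49952, GB43094 and GB55144 passed in both tissues with any 1 library left out. In olea bees GB43214 and GB49219 were higher in both (background 4.8%), and 8 members were lower in both (GB40719, GB43093, GB43094, GB47338, GB48037, GB54715, GB55223 and GB55743, background 4.66%). Of these 10, only GB49219, GB43094 and GB54715 passed in both tissues with any 1 library left out. GB42373 and GB43904 were called lower in olea mouthparts and higher in olea tentacles (background 1.27%). The GB42373 call was lost in mouthparts without control replicate 1 or 3 or olea replicate 2 or 3, and in tentacles without control replicate 2 or 3, olea replicate 2 or 3 or pear replicate 1, and the GB43904 call in mouthparts without any of the 7 libraries named above. No member was higher in mouthparts and lower in tentacles, in pear (background 0.444%) or in olea bees (background 0.411%). The difference of the tissue responses itself passed in 9 members with a higher and 5 with a lower value in mouthparts for pear (background 12.8%, 5.46% higher and 7.31% lower) and in 4 higher and 11 lower for olea (background 15.4%, 4.93% higher and 10.5% lower).

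Related genes outside the list, drawn by words in their KEGG description, were counted beside it. Words such as centrosomal protein, cytoplasmic dynein and tubulin are not limited to genes of cilia. Of 22 genes listed for the basal body and transition zone, which anchor and gate the cilium, 20 were tested in mouthparts. Against control, 7 were higher in pear (background 16.5% of all genes) and 7 lower in olea (background 14.8%). In olea against pear, 12 were lower and 1 higher (median -0.50, background 15.9% lower and 14.9% higher). Rootletin (GB51348), the main protein of the ciliary rootlet, averaged 2.01 ± 0.58 CPM in olea, 7.50 ± 0.87 CPM in pear and 3.26 ± 0.77 CPM in control mouthparts (SD, n = 3 each), and olea minus pear was -1.89 ± 0.22 (SE, adjusted p = 0.00011). CEP164 (GB42895), a protein of the basal body's distal appendages, averaged 95.8 ± 1.26 CPM in olea, 128 ± 10.8 CPM in pear and 88.6 ± 2.78 CPM in control mouthparts (SD, n = 3 each), and pear minus control was 0.53 ± 0.06 (SE, adjusted p = 4.2e-05). In tentacles 3 of the 22 were higher and 3 lower in either pollen group (background 14.4% higher and 13.5% lower in olea, 14.9% and 14.6% in pear). Of the 3 kinesin-2 genes, motors of outward transport, 2 were lower in olea than in control mouthparts (background 14.8%): KIF3A (GB43441, -0.71 ± 0.12 SE, adjusted p = 0.0014) and KIF17 (GB40274, -0.34 ± 0.07 SE, adjusted p = 0.0053). In tentacles KIF17 averaged 119 ± 2.5 CPM in olea and 99.3 ± 3.6 CPM in control bees, the other direction. KIF3A averaged 42.6 ± 2.0 CPM in olea and 44.2 ± 1.6 CPM in control tentacles (SD, n = 3 each). The retrograde motor, cytosolic dynein heavy chain 2 (GB51191), averaged 10.5 ± 1.51 CPM in olea, 18.7 ± 0.63 CPM in pear and 13.4 ± 2.10 CPM in control mouthparts (SD, n = 3 each), and olea minus pear was -0.82 ± 0.13 (SE, adjusted p = 0.00065). All 4 cytoplasmic dynein genes were tested there, with 2 lower and 1 higher in olea than in pear (background 15.9% lower and 14.9% higher). FOXJ1 (GB50277), a transcription factor of motile cilia in vertebrates, averaged 5.38 ± 0.58 CPM in olea, 8.97 ± 0.99 CPM in pear and 6.63 ± 0.98 CPM in control mouthparts, against 271 ± 14.98 CPM in control tentacles (SD, n = 3 each). All 3 transcription factors of the list were lower in olea than in pear mouthparts (background 15.9%), among them the RFX1/2/3 gene (GB41876, -0.30 ± 0.10 SE, adjusted p = 0.034).

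Of the 3 ciliary channel genes, all annotated as TRPV channels, 2 were higher in each pollen group of the tentacles (background 14.4% in olea and 14.9% in pear). GB44065, of a family that works in the cilia of chordotonal neurons in Drosophila, averaged 37.0 ± 3.03 CPM in olea, 50.9 ± 1.49 CPM in pear and 13.1 ± 1.95 CPM in control tentacles (SD, n = 3 each). It rose by 1.48 ± 0.10 in olea (SE, adjusted p = 1.1e-06) and by 1.95 ± 0.10 in pear (SE, adjusted p = 8.3e-08), and GB41937 by 0.99 ± 0.22 in olea (SE, adjusted p = 0.0057) and 1.31 ± 0.21 in pear (SE, adjusted p = 0.00079). Of 15 genes listed for tubulins, 14 were tested in mouthparts. Against control, 6 were lower in olea (background 14.8%), and 6 were lower and 1 higher in pear (background 17.3% lower and 16.5% higher). The alpha-tubulin genes GB52107 (-0.57 ± 0.06 SE, adjusted p = 2.8e-05) and GB46039 (-0.58 ± 0.06 SE, adjusted p = 3.3e-05) led in pear. Of 17 tested genes for assembly and tubulin glutamylation outside the members, 4 were higher and 2 lower in pear mouthparts (background 16.5% higher and 17.3% lower). The glycylase TTLL3/8 gene GB50671 (1.16 ± 0.14 SE, adjusted p = 7.1e-05) and the TTLL5 gene GB48675 (0.47 ± 0.08 SE, adjusted p = 0.00081) led.

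Transcripts of other cells differed between the mouthparts groups. GB40730, annotated as odorant receptor 2, the co-receptor of honey bee odorant receptors, had 0.0820, 0.0824 and 0.551 CPM in olea mouthparts, 0 CPM in all pear mouthparts and 5.35, 5.14 and 2.78 CPM in control mouthparts, beside 378 to 581 CPM in tentacles libraries. GB55593, annotated with the odorant binding PBP/GOBP family, had 10.7, 11.6 and 30.9 CPM in olea, 22.4, 17.9 and 19.5 CPM in pear and 216, 206 and 157 CPM in control mouthparts. The 110 odorant receptors summed to 51.1 to 56.1 CPM in olea, 52.4 to 58.0 CPM in pear and 74.5 to 85.7 CPM in control mouthparts, with 22, 15 and 8 of them at 0. Of 42 odorant receptors tested in mouthparts, 9 were lower in olea and 13 in pear than in control bees (background 14.8% and 17.3% lower). Hypopharyngeal gland markers summed to 4431 to 6607 CPM in olea, 1707 to 1836 CPM in pear and 10030 to 14110 CPM in control mouthparts, with 3 of 14 at 0 in each. Their part in the lower calls of members against control mouthparts was not tested. Between olea and pear mouthparts, where the co-receptor was under 1 CPM in every library, 12 neuron markers were lower and 1 higher of 32 in olea (background 15.9% lower and 14.9% higher). Their sums were 1731 to 1944 CPM in olea and 1905 to 1983 CPM in pear. Against control mouthparts, neuron markers were higher in 5 and lower in 3 in olea (background 12% and 14.8%), and higher in 14 and lower in 3 in pear (background 16.5% and 17.3%). Muscle markers summed to 26360 to 35800 CPM in olea, 23600 to 37290 CPM in pear and 24650 to 25920 CPM in control mouthparts. The part of these lists in the members' differences was not tested either.

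In tentacles, 14.4% of all genes were higher and 13.5% lower in olea than in control bees, and 14.9% and 14.6% in pear. Of 33 neuron markers, 18 were higher and none lower in olea (edgeR's quasi-likelihood test), and 17 higher and 1 lower in pear. Their sums were 4278 to 4306 CPM in olea, 4449 to 4557 CPM in pear and 3680 to 3846 CPM in control tentacles. Of 29 muscle markers, 6 were lower and 1 higher in olea, and 20 lower and 1 higher in pear, with sums of 4458 to 4553 CPM in olea, 3250 to 3398 CPM in pear and 4326 to 4879 CPM in control tentacles. Hypopharyngeal gland markers were lower in 7 and higher in 1 of 10 in olea, and lower in 7 and higher in 2 in pear. The part of these lists in the members' differences was not tested.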

How the data were processed

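RNA from 18 libraries was made from 1.3 ug of total RNA with a Qiagen kit and a SMARTER library kit, per the labels' protocols. As deposited by the authors, whole-number counts and FPKM values stand side by side in a table of 17545 genes (after 70 continuation lines were joined to the line before). HISAT2 is named in the submitters' processing notes. For its version, the build, the annotation, the counting program and strand use, nothing is stated in those sources. The members and lists were chosen with earlier results of these data known. Counts were tested with edgeR 4.0.16 in R 4.3.3 (TMM scaling, filterByExpr, quasi-likelihood F test, adjusted p under 0.05 over all genes). The 9 libraries of a tissue, or all 18 with pollen groups weighing equally, shared a fit. Printed CPM are TMM-scaled. Genes were named by these rules: the highest member and the smallest p per role, up to 25 passing members per comparison, the members whose response differed between tissues, and 2 genes per related list. GB40730, GB55593, GB50114 and GB53379 were added after their values were seen. Alternatives were other size factors, DESeq2 1.42.0, no filter, limma 3.58.1 on log2(FPKM + 1) and log2(FPKM + 0.1), a replicate block, single libraries left out, and another reading of the conflicting labels. Scripts were tested on simulated data. Gene models that share a hit, and overlapping or antisense genes, may share reads. Counts carry counting error only beside the spread between libraries.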

Additional observations from a re-analysis of the deposited data

Results flagged for a closer look

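A member is listed here because its pollen difference in mouthparts differed from that in tentacles by edgeR's interaction test with Benjamini-Hochberg adjustment. Values are the log2 pollen difference in mouthparts minus that in tentacles. For pear, the difference was more positive in mouthparts for GB49219 (gudu, 2.70), GB54231 (dynein assembly factor 4, 0.90), GB46926 (tektin-1, 0.67), GB53320 (0.66), GB40719 (CFAP251, 0.59), GB41085 (tektin-2, 0.58), GB51016 (CFAP65, 0.49), GB54468 (dynein heavy chain 5, 0.42) and GB49188 (IFT80, 0.41). It was more negative in mouthparts for GB55144 (-1.94) and GB55143 (-1.71), both with a dynein heavy chain 6 hit, GB42373 (dynein heavy chain 7, -1.56), GB47499 (-1.10) and GB50225 (CFAP43, -0.55).

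For olea, the difference was more positive in mouthparts for GB49219 (1.15), GB43377 (with a dynein heavy chain 2 hit, 1.04), GB51673 (a dynein beta chain, 0.62) and GB41213 (IFT20, 0.50). It was more negative for GB55143 (-1.42), GB51084 (RSPH3, -1.06), GB42373 (-0.96), GB43904 (IFT81, -0.66), GB50225 (-0.63), GB54158 (IFT140, -0.52), GB51016 (-0.51), GB49559 (IFT88, -0.46), GB51120 (-0.46), GB43094 (BBS9, -0.43) and GB43214 (dynein heavy chain 12, -0.24). With any 1 library left out, 9 of the 14 pear calls and 10 of the 15 olea calls passed.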

How the results depend on the processing

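Directions were followed through the alternatives for up to 25 passing members per comparison and for GB55144 and GB49219, and none of these reversed. Members outside that set were not followed. Of them, tektin-3 (GB53379), named after its values were seen, was higher in mouthparts by counts and lower by mean FPKM. IFT20 (GB41213), which did not pass between tissues, averaged 10.8 FPKM in mouthparts and 13.1 FPKM in tentacles, against a slightly positive difference by counts. The balance of calls did turn in some counts. Pear mouthparts, with 10 higher and 13 lower, had 14 higher and 6 lower on log2(FPKM + 1), 13 and 6 on log2(FPKM + 0.1), 10 and 9 without control replicate 1, 11 and 9 without pear replicate 2 and 9 and 7 without replicate 2 of all mouthparts groups, and the member median of 0.09 became -0.02 with the conflicting labels read as pear. Olea against pear tentacles, with 1 higher and 3 lower, had 4 and 3 by DESeq2 or without control replicate 2 and 6 and 5 in the 6 libraries compared. The pear interaction, with 9 higher and 5 lower, had 4 and 5 without tentacles pear replicate 1. Counts of members that moved by over 1.5 times were these. For olea against pear tentacles, DESeq2 called 7 members and a fit to the 6 libraries compared called 11, beside 4. For pear mouthparts, reading the conflicting labels as pear gave 11, beside 23. For olea mouthparts, limma on log2(FPKM + 1) and on log2(FPKM + 0.1) gave 12 each, beside 22. The pear interaction gave 22 on log2(FPKM + 1), beside 14, and the olea interaction 9 on either FPKM scale, beside 15. On log2(FPKM + 0.1) the pear interaction had 14 higher and 4 lower, with a median of all genes of 0.16. With 1 library left out, counts ran from 16 to 28 in pear tentacles (16 without pear replicate 2), 15 to 26 in olea tentacles (15 without olea replicate 1, 16 without olea replicate 3), 2 to 7 for olea against pear tentacles (2 without olea replicate 1 or pear replicate 2, 7 without control replicate 2), 18 to 25 in pear mouthparts, 12 to 22 in olea mouthparts (12 without control replicate 1 or 3, 14 without control replicate 2 or olea replicate 3), 11 to 18 for olea against pear mouthparts (11 without olea replicate 3), 71 to 75 between tissues, 9 to 20 for the pear interaction (9 without tentacles pear replicate 1) and 10 to 17 for the olea interaction. The cause was not tested. Same-numbered libraries of different groups deviated with a median correlation of -0.017 within a tissue, between -0.069 and 0.058. Across tissues the median was 0.004, between -0.062 and 0.101. Differently numbered libraries ran from -0.076 to 0.1, so no shared effect of the replicate number was seen. With 3 libraries a group, these values cannot decide whether same-numbered libraries shared bees or a batch. With a replicate block the counts were 24 in pear tentacles, 24 in olea tentacles, 3 for olea against pear tentacles, 24 in pear mouthparts, 22 in olea mouthparts, 17 for olea against pear mouthparts, 76 between tissues, 15 for the pear and 16 for the olea interaction.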
